A study of Danio rerio with 697 samples.

Results

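Of 693 wells labelled with a condition, from sorted zebrafish cells, 86 passed limits on the share of both insulin RNA and somatostatin RNA. Of these, 14 were shallow, with 11807 gene counts or fewer. These wells were chosen by their own values. A well was kept when it had at least 200 detected genes and at most 40% of its gene counts on mitochondrial protein-coding genes (13 genes), which left 650 wells. A kept well with *ins* at 1% or more of its counts on genes was called an insulin well, which left 559. An insulin well in which *sst1.1*, *sst1.2* and *sst2* together took 2% or more of the counts was called sst-high (86 wells), and one in which they took under 0.5% was called sst-low (440 wells). The remaining 33 insulin wells lay between both limits. A further 33 kept wells had somatostatin at 2% or more with *ins* under 1%, and are called insulin-poor somatostatin wells.

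Larvae were bathed in csn, the compound that opens the rat TRPV1 cation channel, and their pancreases were dissected at 5 dpf, dissociated and sorted for Kaede fluorescence and calcein, 1 cell to a well. All groups carried *Tg(ins:Kaede)*, in which insulin regulatory sequences drive the fluorescent reporter, and all were given csn. Control larvae (48 h of csn from 3 dpf) lacked the channel. Larvae of the 24-h and 48-h groups also carried the channel under the same insulin regulatory sequences, so that csn loads their beta cells with calcium; they were treated for 24 h (from 4 dpf by the labels, from 3 dpf by the text of the study) or for 48 h from 3 dpf. Each group was a pool of larvae on a plate of its own, control on plate 1, the 24-h group on plate 2 and the 48-h group on plate 3, whose 366 wells carry the label set 1 or set 2. Treatment and plate therefore cannot be told apart, each treatment has 1 sample, and no test between treatments was made. The sort was thus for a reporter under insulin regulatory sequences. Of the 650 kept wells, the 33 insulin-poor somatostatin wells and 58 others still had *ins* under 1%. Whether each sorted cell had insulin promoter activity, present or recent, was not tested.

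In the zebrafish islet, beta cells make insulin, which lowers blood glucose, and delta cells make somatostatin, a short peptide that restrains the secretion of its neighbors. Zebrafish carry several somatostatin genes, and different cells of the islet can use different ones. The hormone RNAs are among the most abundant in an islet, so that RNA spilled from broken cells, or a neighbor sorted into the same well, can bring a hormone into a well whose cell does not make it. By the coordinates of the deposited table (GRCz11), *ins* (ENSDARG00000035350) lies on chromosome 5 at 37854685 to 37857696 and *sst2* (ENSDARG00000014190) on chromosome 2 at 5726353 to 5728843. The genes *sst1.1* (ENSDARG00000040799, 36156986 to 36158851) and *sst1.2* (ENSDARG00000033161, 36115955 to 36120277) are neighbors on chromosome 15.

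The number of sst-high wells differed between the plates. In control, 7 insulin wells were sst-high, which is 4.29% of the insulin wells of that group (exact Clopper-Pearson 95% interval 1.74 to 8.65%). After 24 h of csn there were 19, or 14.3% (8.83 to 21.4%), and after 48 h there were 60 (of 263), or 22.8% (17.9 to 28.4%). Set 1 of the 48-h group held 15 of 80 (18.75%, 10.9 to 29%) and set 2 held 45 (24.6%, 18.5 to 31.5%), so over wells of all depths both sets lay above the control interval, and their own intervals overlapped. The intervals cover the counting error of wells only. Wells of 1 pool are not replicates of a treatment, and the intervals say nothing about the spread between pools of larvae. The plates also differed in how much somatostatin RNA they held in all. Somatostatin took 1.02% of the gene counts summed over the wells of plate 1, 4.85% on plate 2 and 4.74% on plate 3, and the insulin-poor somatostatin wells numbered 4, 12 and 17. The part of these plate-wide levels in the shares of sst-high wells was not tested.

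**Figure D1:**
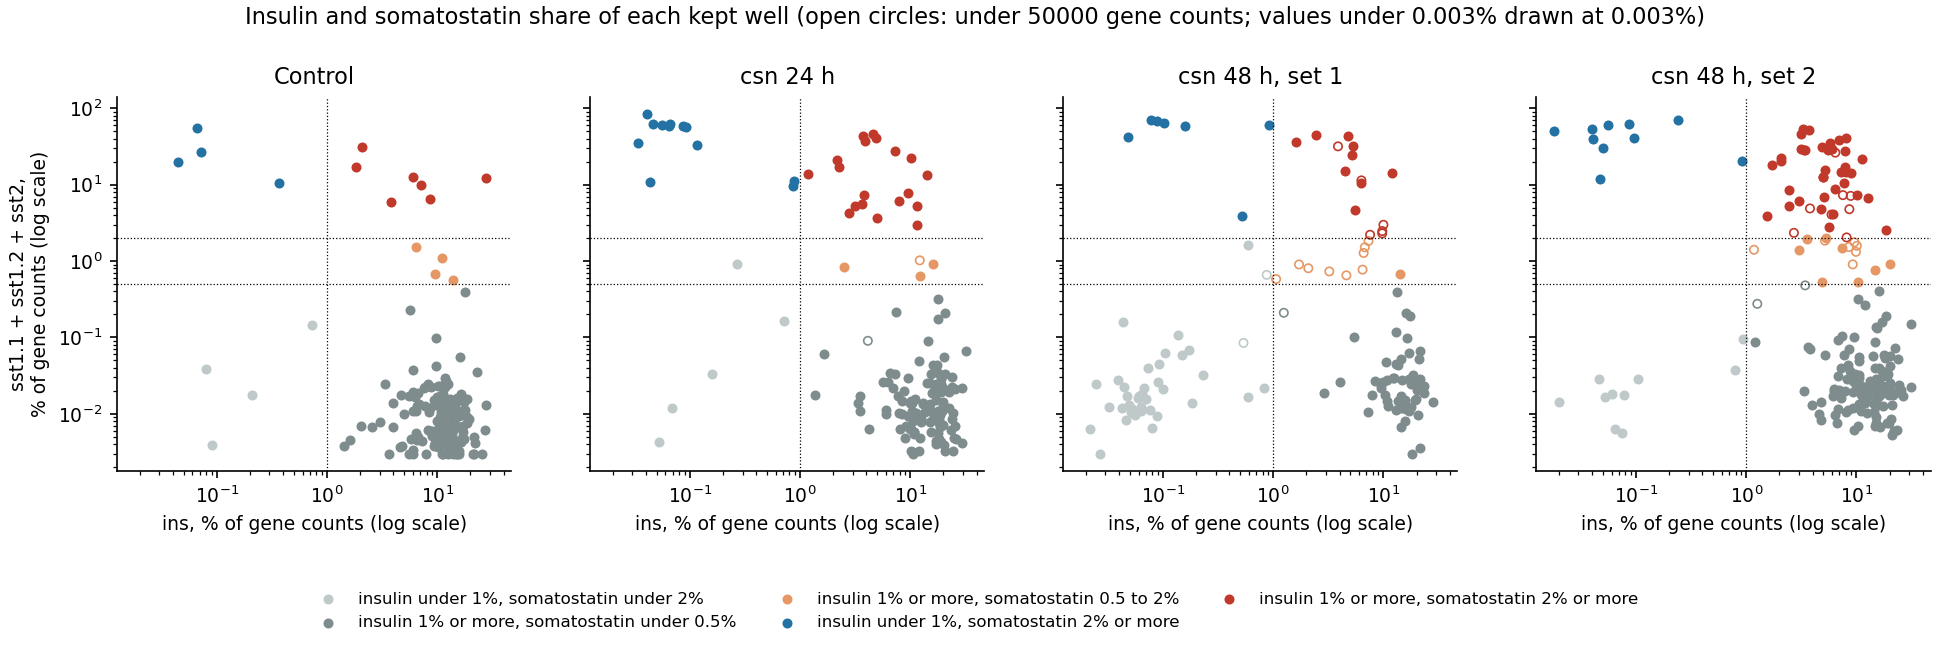
Each point is a kept well, with its insulin share of gene counts (%, log scale) across and its summed somatostatin share (%, log scale) up, in a panel for control, csn 24 h and both sets of csn 48 h. Red points are the sst-high wells (7 in control, 19 at 24 h, 15 and 45 at 48 h), dotted lines mark 1% insulin and 0.5% and 2% somatostatin, and open circles are wells under 50000 gene counts, which among sst-high wells occur only in the 48-h sets.

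The somatostatin level of the sst-high wells spread over a wide range. In the 7 control wells somatostatin took 5.93, 6.48, 9.79, 12.3, 12.5, 17 and 30.9% of the gene counts. The 19 wells of the 24-h group ran from 2.97 to 46.2% with a median of 13.5%, and the 60 wells of the 48-h group from 2.04 to 53% with a median of 14.4%. The control wells lay within the range of both treated groups, and none of them was under 5 or over 40%. In the same control wells, in the same order, *ins* took 3.81, 8.56, 7.15, 27.4, 6.05, 1.84 and 2.09%. At 24 h *ins* had a median of 4.61% (1.18 to 14.2%) and at 48 h of 5.60% (1.55 to 18.5%). These values chose the wells and are given as a description. Somatostatin takes up counts itself, and over the counts left when somatostatin is set aside the median *ins* share of the 72 deep sst-high wells (at least 50000 gene counts) was 6.88%, against 12.9% in 436 deep sst-low wells. The lower share was seen in each group, with 6.92 against 11.4% in control, 6.54 against 15.3% at 24 h and 6.93 against 14.3% at 48 h, and single wells of both kinds overlapped.

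Over wells of all depths and groups the limit at 2% did not fall in a gap of the distribution. Insulin wells numbered 17 at 0.5 to 1% somatostatin, 16 at 1 to 2%, 18 at 5 to 10% and 19 at 10 to 20%. Deep wells were sparser around the limit, with 10 at 0.5 to 1%, 6 at 1 to 2%, 9 at 2 to 5%, 16 at 5 to 10% and 18 at 10 to 20%. In control 0 insulin wells lay at 2 to 5%. Over the groups, 416 of the 559 insulin wells had somatostatin under 0.1%, 33 had between 0.5 and 2%, 18 between 2 and 5%, and 50 had 10% or more. The 3 wells just inside the limit had 2.04, 2.21 and 2.30% and were all shallow, with 4264, 7330 and 11807 gene counts. The nearest wells outside had 1.99, 1.92 and 1.85%. At the insulin limit, the sst-high wells with the least *ins* had 1.18, 1.55 and 1.62%, and the insulin-poor somatostatin wells with the most had 0.920, 0.917 and 0.880%. At 10% the share was 2.45% of control insulin wells, 7.52% at 24 h and 13.7% at 48 h.

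Of the 86 wells 14 were shallow, all of the 48-h group (6 in set 1 and 8 in set 2), with 1486 to 11807 gene counts. Over these 14 wells the hormones took a narrower range than over the 72 others. Here *ins* lay between 2.71 and 10.0%, and the median somatostatin share was 4.42% (2.04 to 31.7%). Summed over these wells, 70531 gene counts stood beside 256152 spike-in counts, where all wells of plate 3 held 149407497 gene and 1269312 spike-in counts. In this sum of shallow wells *ins* took 7.48% and somatostatin 8.08% of the gene counts, but limits on these shares chose the wells. In the sum of all 35 insulin wells under 50000 counts, which no somatostatin limit chose, *ins* took 4.55% and somatostatin 2.34%. The somatostatin reads of the 14 wells divided into 17.7% *sst1.1*, 16% *sst1.2* and 66.3% *sst2*. Over all wells of plate 3, *ins* took 9.07%, somatostatin 4.74%, and the 3 genes 39.4, 13.2 and 47.5% of it. Of the 35 insulin wells under 50000 counts, 14 were sst-high, 17 lay between the limits and 4 were sst-low. Of the 524 deep insulin wells, 72 were sst-high, or 13.7% (10.9 to 17%), with 4.29% in control, 14.5% at 24 h and 20.0% at 48 h (15.0 to 25.8%). In set 1 the deep share was 14.1% (6.64 to 25%, 9 of 64 wells), with an interval that overlaps that of control, and in set 2 it was 22.3% (16.2 to 29.4%). Spilled RNA would give all shallow wells of a plate a like mix of hormones, and its part in these 14 wells was not tested. What follows is about the 72 deep wells unless all 86 are named.

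The sst-high wells were not of a single kind in the somatostatin gene they used. In 47 of the 72 deep wells *sst1.1* was the most abundant of the 3 genes, and in 39 of these it made up at least 90% of the somatostatin counts. Their *sst1.1* share of gene counts ran from 2.5 to 38.8% with a median of 12.0%, while the median *sst2* share was 0.0112%. In the other 25 wells *sst2* led (21 wells) or *sst1.2* led (4 wells). Their median *sst2* share was 14.7% and their median *sst1.2* share 4.75%, against a median of 0.150% for *sst1.1*. Both forms were found in each group. The wells led by *sst1.1* numbered 4 of 7 in control, 13 of 19 at 24 h and 30 of 46 at 48 h (4 of 9 in set 1 and 26 of 37 in set 2). In 10 wells, 2 at 24 h and 8 at 48 h, *sst1.1* and *sst2* each took at least 1% of the counts.

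The control wells show this plainly. Wells with somatostatin at 9.79, 12.3, 12.5 and 30.9% held *sst1.1* at 9.69, 11.9, 12.0 and 30.1%, and *sst2* under 0.01% in each. The wells at 6.48 and 17% held *sst2* at 5.74 and 11.1% with *sst1.1* at 0.000148 and 0.0931%. The well at 5.93% was led by *sst1.2* (3.21%), followed by *sst2* (2.04%) and *sst1.1* (0.676%). Of the 33 insulin-poor somatostatin wells, in contrast, 3 were led by *sst1.1*, 25 by *sst2* and 5 by *sst1.2*. Their median *sst2* share was 34.5% and their median *sst1.1* share 0.00929%. The division of the sst-high wells by their leading gene was made after these values were seen, and no test is made on it.

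**Figure D2:**
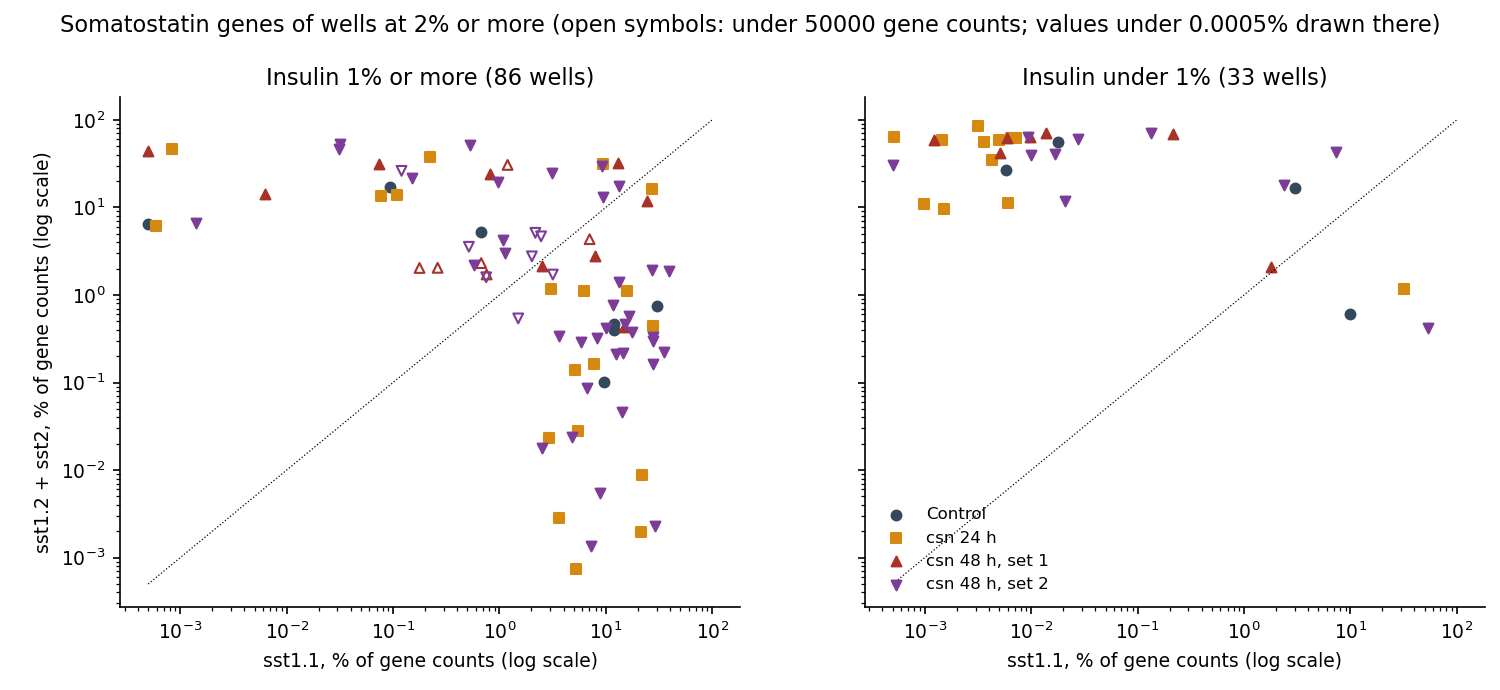
Each point is a well with somatostatin at 2% or more, with *sst1.1* across and *sst1.2* plus *sst2* up, both as % of gene counts on log scales. Among the 86 insulin wells on the left, 48 lie below the dotted line of equality, where *sst1.1* exceeds the other genes summed, while 30 of the 33 insulin-poor wells on the right lie above it; symbols give the group, and open symbols are wells under 50000 gene counts.

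Across all genes other than *ins* and the somatostatin genes, counts were summed over the sst-high and over the sst-low wells of each group, and both kinds were compared with the group as a block (edgeR's quasi-likelihood test, 6 sums, Benjamini-Hochberg adjustment). Of 9035 genes tested, 7 passed an adjusted p of 5% (0.0775%), 4 higher in the sst-high sums (0.0443%) and 3 lower (0.0332%), and 582 genes (6.44%) had an unadjusted p under 0.05. The 3 groups are the only replicates, each with 1 sum of each kind, and the common dispersion was 2.41, so that the test could reach few genes. In simulated sums with the dispersion fitted to each gene, 4% of genes changed 256-fold were recovered, and none of those changed 64-fold or less. Fold changes were not centered on 0. The median over all tested genes was -2.0 on the log2 scale, and the sums differ in the wells behind them (440 sst-low, 86 sst-high), whose part in this was not tested. A difference is therefore best read beside the levels in each sum, which follow in counts per 1000000 counts (CPM) on genes other than *ins* and the somatostatin genes.

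*gnrh2*, which encodes a gonadotropin-releasing hormone best known from neurons of the midbrain, was the gene with the steadiest call. It stood at 3128 CPM in the sst-high sum of control, 2209 at 24 h and 2010 at 48 h. The sst-low sums held 11.8, 1.05 and 0.827 CPM. The log2 fold change was 10.13 (SE 0.93, edgeR adjusted p = 1.2e-23), and it passed the threshold in 17 of 18 alternative settings, but not with an insulin limit of 5% (adjusted p = 0.311). The counts came from few wells, for 12 of the 72 deep sst-high wells had 10 or more counts, 2 in control, 3 at 24 h and 7 at 48 h. Their counts were 17374, 11229, 6411, 5331, 5038, 4882, 3848, 1522, 1035, 1006, 565 and 231. In the other 60 wells it stayed under 10 counts. Of 436 deep sst-low wells 1 reached 10 counts (997 counts, in control), and of 33 insulin-poor somatostatin wells none did, where a count of 0 allows up to 9.09%. Of the 12 wells, 10 were led by *sst1.1* (10 of 47, against 2 of 25 of the others).

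*dkk3b*, a secreted protein of the Dickkopf family that was on the list of delta cell genes, stood at 736, 276 and 1110 CPM in the sst-high sums of control, 24 h and 48 h. The sst-low sums held 0.386, 0.412 and 32.8 CPM. The log2 fold change was 8.67 (SE 2.04, edgeR adjusted p = 0.0291). This call was less steady, for 9 of 18 alternative settings ended it. Leaving out control (adjusted p = 0.0711), the 24-h group (0.619), the 48-h group (0.792) or set 2 of the 48-h group (0.607) each did so, as did DESeq2's size factors (0.198), no filter on low counts (0.414), no replicate block (0.106), both 48-h sets as blocks of their own (0.083) and an insulin limit of 5% (0.311). The log2 fold change kept between 6.26 and 10.32 in all settings. By wells it was the widest of these markers. Of the 72 deep sst-high wells 25 had 10 or more counts (34.7%, 23.9 to 46.9%), 2 in control, 3 at 24 h and 20 at 48 h, and of the 436 sst-low wells 2 did (0.459%). Where it reached 10 counts, its median was 2402 CPM in 19 wells led by *sst1.1* and 1561 CPM in 6 wells led by *sst2* or *sst1.2*, near the 1891 CPM of 10 insulin-poor somatostatin wells.

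*gip*, which encodes an incretin peptide, was called higher with a log2 fold change of 6.39 (SE 0.57, edgeR adjusted p = 8.4e-25), but it rests on a single well. That well, of the 24-h group and with *ins* at 2.8% and somatostatin at 4.2%, held 106046 counts of *gip*, and the next highest sst-high well held 1077. At least 10 counts were found in 4 of 72 sst-high and in 10 of 436 sst-low wells. Without the 24-h group the adjusted p was 1. The mitochondrial gene *MT-CO2* was called higher by 0.24 (SE 0.03), with 49030, 55240 and 56040 CPM against 35140, 46560 and 50620, and its sign turned under 2 settings, to -0.25 with no filter on low counts and to -0.15 with wells thinned to an equal depth.

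**Figure D3:**
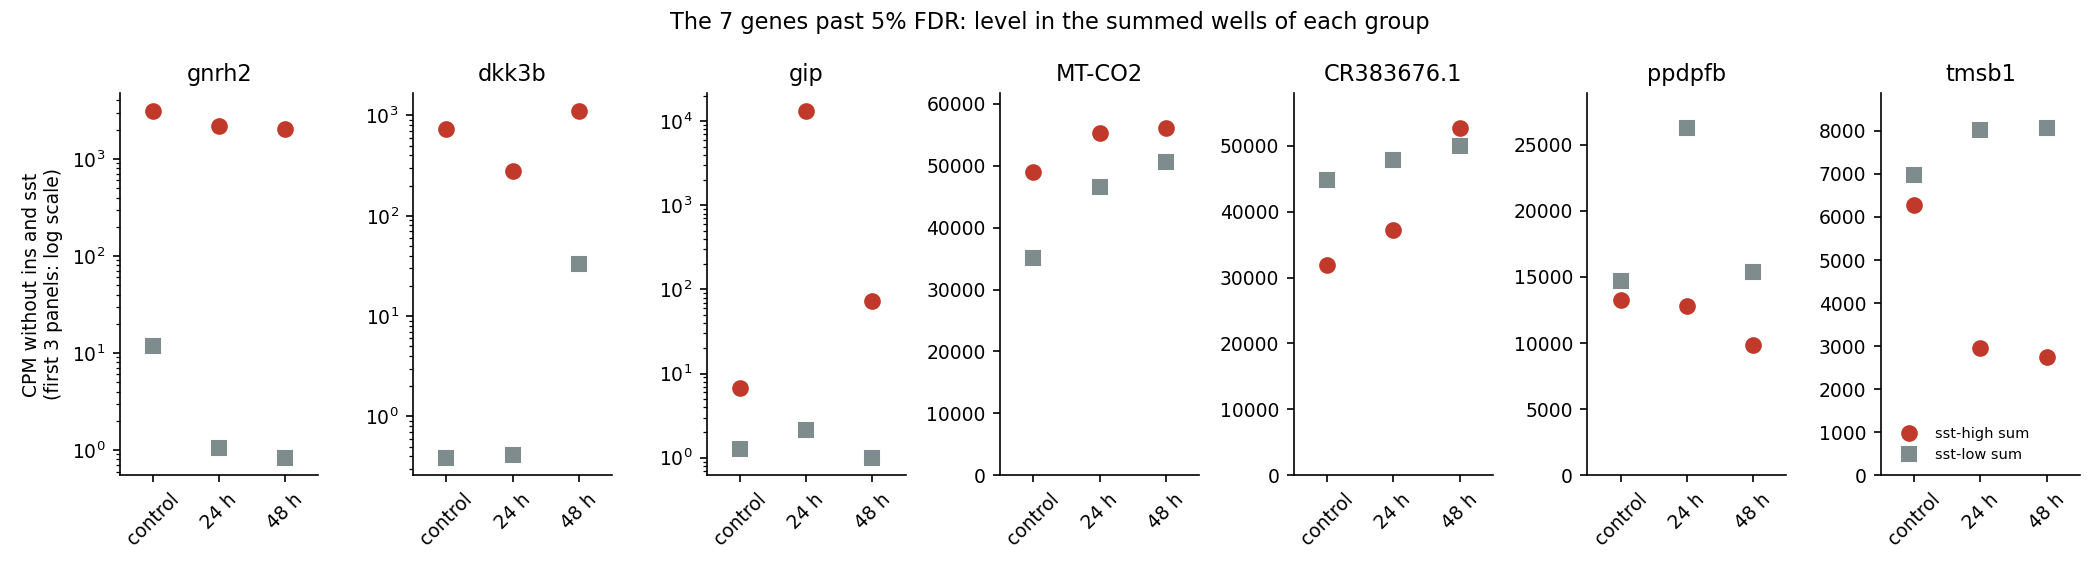
The 7 genes past the threshold are shown by group (control, 24 h, 48 h), as CPM on genes other than *ins* and the somatostatin genes in the sum of the sst-high wells (red circles) and of the sst-low wells (gray squares), with a log scale for *gnrh2*, *dkk3b* and *gip* and an axis from 0 for the rest. *gnrh2* and *dkk3b* lie far apart in all 3 groups, while *gip* rises to 13280 CPM in the 24-h sum alone and *CR383676.1* changes sides at 48 h.

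Among the genes called lower, *tmsb1*, a thymosin that binds actin, stood at 6268, 2954 and 2755 CPM in the sst-high sums against 6975, 8011 and 8061 CPM in the sst-low sums (log2 fold change -1.11, SE 0.20, edgeR adjusted p = 6.3e-05). In control the levels differed little, and without the 24-h group (adjusted p = 0.619) or the 48-h group (0.792) the gene was no longer called. *ppdpfb*, named for a role in exocrine pancreas development in zebrafish, stood at 13240, 12810 and 9845 against 14670, 26250 and 15400 CPM (log2 fold change -0.66, SE 0.09), and it too was not called without either of these groups. Its sign turned to 0.42 when DESeq2's size factors set the scale, which shifted the median of all genes from -2.0 to -1.08, while *tmsb1* went to -0.04. The third, *CR383676.1*, was lower in control and at 24 h but higher at 48 h (52650 against 49940 CPM). Without set 2 of the 48-h group *gnrh2* was the only gene called, and without the 48-h group *gnrh2*, *gip* and *MT-CO2* were.

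Lists of genes chosen for cell types and pathways held few calls. In the delta cell list 1 of 5 tested genes, *dkk3b*, was called, and in the list of other islet peptides 1 of 5, *gip*. In this edgeR fit none of the 6 beta cell and 5 alpha cell genes tested was called in either direction, nor any gene of the lists for islet transcription factors (10 tested), granule and hormone processing (17), ER chaperones and the unfolded protein response (23), immediate early genes (15), cytosolic heat shock (18), apoptosis and p53 (11), the cell cycle (7) or receptors and ion channels (6). Other settings did call genes of these lists. Without control, 13 genes were called higher and 6 lower of 7616 tested. Among those higher were the alpha cell genes *gcga* and *gcgb* and the heat shock genes *hsp70.1*, *hsp70.2* and *hsp70l*. In that setting *pyya*, of the other islet peptides, was called lower. The same 3 heat shock genes were called with DESeq2's size factors. *hsp90aa1.2* was called lower with no filter and with thinned wells. DESeq2, which called 230 genes higher and 540 lower of 6582 tested, called *hhex* and *chgb* higher and *ier2b* and *mcm5* lower. With that many calls over all genes, a few in the lists are no result about the lists. In the edgeR fit the median log2 fold changes of the lists named here, the delta cell list aside, lay between -1.99 and -0.03, beside -2.0 for all genes. Other lists with few tested genes lay on both sides of that value. Acinar cells (5 tested) lay at -0.85, iridophores (4) at -0.41 and ducts or progenitors (3) at -0.20. Neurons (3) lay at -3.34, hepatocytes or gut (2) at -3.19 and erythrocytes (1) at -4.795. The median of the delta cell list was 5.08. Of 1210 genes at a mean of 100 CPM or more, 9.42% were higher and 14.5% lower in the sst-high sum of all 3 groups. The median log2 ratio of CPM, averaged over the groups, was -0.36 in these 1210 genes, well above -2.0. At that level beta cell genes (5) lay at -1.08, other islet peptides (3) at -1.06 and receptors and ion channels (1) at -1.08. Ducts or progenitors (1) lay at -0.87 and the cell cycle (1) at -0.45. All other lists with such genes lay above -0.36, from -0.13 (immediate early genes, 9) to 7.22 (delta cell genes, 2).

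Several beta cell genes were present in the sst-high wells. *pdx1*, the homeobox factor that beta cells need to express insulin, stood at 3371, 4730 and 5294 CPM in the sst-high sums of control, 24 h and 48 h and at 5524, 7824 and 6876 CPM in the sst-low sums (log2 fold change -0.66, SE 0.20, adjusted p = 0.73). It was lower in all 3 groups without passing the test, and its sign turned to 0.44 under DESeq2's size factors. By wells, 66 of 72 had *pdx1* at 10 or more counts (41 of 47 led by *sst1.1* and 25 of 25 led by *sst2* or *sst1.2*), as had 372 of 436 sst-low wells and 22 of 33 insulin-poor somatostatin wells. *gck*, the glucokinase through which beta cells sense glucose, stood at 780 CPM over the sst-high wells and 889 CPM over the sst-low wells. *neurod1*, a basic helix-loop-helix factor of endocrine cells, stood at 360 and 505 CPM, and *mnx1*, a homeobox factor of beta cells, at 104.7 and 326 CPM. *slc2a2*, a glucose transporter, stood at 177.2 and 269 CPM. Others were nearly absent. *pcsk1*, a convertase of prohormones, was at 0.113 CPM in the sst-high wells (3 counts in all) and at 19.2 CPM in the sst-low wells, and *slc30a8*, a zinc transporter of insulin granules, at 0.151 and 0.115 CPM.

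Among the delta cell genes, *hhex*, the homeobox factor that mouse delta cells need, was the clearest by wells. It reached 10 counts in 18 of 72 sst-high wells (25.0%, 15.5 to 36.6%), 4 of the 7 in control, 3 at 24 h and 11 at 48 h. Of 436 sst-low wells none reached 10 counts, and a count of 0 allows up to 0.688%. In insulin-poor somatostatin wells it did so in 8 of 33 (24.2%). The highest counts were 1043, 741, 626, 607 and 584, all in wells led by *sst1.1*, and the lowest of the 18 were 19, 18 and 17. In the fit on sums its log2 fold change was 10.62 (SE 3.11) with an adjusted p of 0.48, and 2 alternatives took it past the threshold, edgeR's newer dispersion method (adjusted p = 0.0479) and DESeq2 (6.9e-09). Other genes of the list did not follow *hhex* and *dkk3b*. *rbp4*, a carrier of retinol, stood at 384 CPM in the insulin-poor somatostatin wells but at 0.151 CPM in the sst-high and 0.249 CPM in the sst-low wells. *cdx4* was at 0 in all 72, with 35.3 CPM in the insulin-poor wells from 1 well of 33. *etv1* went the other way in its summed level, with 4.54 CPM in sst-high and 31.6 CPM in sst-low wells. By wells it did not, with reads in 9.72% of the sst-high and 8.26% of the sst-low wells. *lepr* stood at 18.4 and 0.841 CPM, with reads in 2.78% of the sst-high and 5.05% of the sst-low wells. Of the genes annotated *GHSR*, ENSDARG00000056230 stood at 2.69 and 1.23 CPM and ENSDARG00000057117 at 0 in both.

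*dkk3b*, *hhex* and *gnrh2* were each found in some of the sst-high wells. They were singled out because they stood higher in these wells than in sst-low wells. A difference in their joint count was therefore fixed by that choice, and the numbers are a description. At least 1 of them reached 10 counts in 43 of 72 deep sst-high wells and 3 of 436 sst-low wells. The same held for 13 of 33 insulin-poor somatostatin wells and 1 of 58 other insulin-poor wells. Of the 72 deep sst-high wells 7 held *dkk3b* with *hhex*, 4 held *dkk3b* with *gnrh2*, 2 held *hhex* with *gnrh2*, and 1 held all 3. By group, 6 of 7 control wells, 7 of 19 wells at 24 h and 30 of 46 at 48 h held at least 1 of them. None of the 14 shallow sst-high wells did, at depths where 10 counts of a gene is a large share.

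Of 13613 genes with 10 counts in any of these wells, 9 (0.0661%) reached 10 counts in at least 8 deep sst-high wells and in at most 2 sst-low wells, a rule set after the values were seen. Besides *dkk3b*, *hhex* and *gnrh2* these were *zgc:195023* (16 against 0 wells), ENSDARG00000096645, which carries a clone name (14 against 0), the gene annotated *SRD5A2* (ENSDARG00000039067, 11 against 0), whose human namesake is a steroid 5-alpha-reductase, *ghrl*, which encodes the peptide ghrelin (10 against 0), the gene annotated *MDK* (ENSDARG00000020708, 9 against 1), a midkine growth factor, and *carhsp1*, an RNA-binding protein (8 against 2). They did not divide evenly over the leading gene. ENSDARG00000096645 was at 10 counts in 12 of 25 wells led by *sst2* or *sst1.2* and in 2 of 47 led by *sst1.1*, *zgc:195023* in 13 and 3, *ghrl* in 7 and 3, and *carhsp1* in 7 and 1, while *SRD5A2* was in 6 and 5. In the insulin-poor somatostatin wells, *zgc:195023* reached 10 counts in 21 of 33 and *carhsp1* in 16, but *SRD5A2* in 1 and *gnrh2* in 0. *MDK* did so in 9, ENSDARG00000096645 in 7 and *ghrl* in 6. *MDK* also reached 10 counts in 8 of the 58 other insulin-poor wells. The share of insulin-poor somatostatin wells that *sst1.1* led was small (3 of 33), and whether *gnrh2* differs between insulin-poor and insulin wells led by that gene was not tested.

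**Figure D4:**
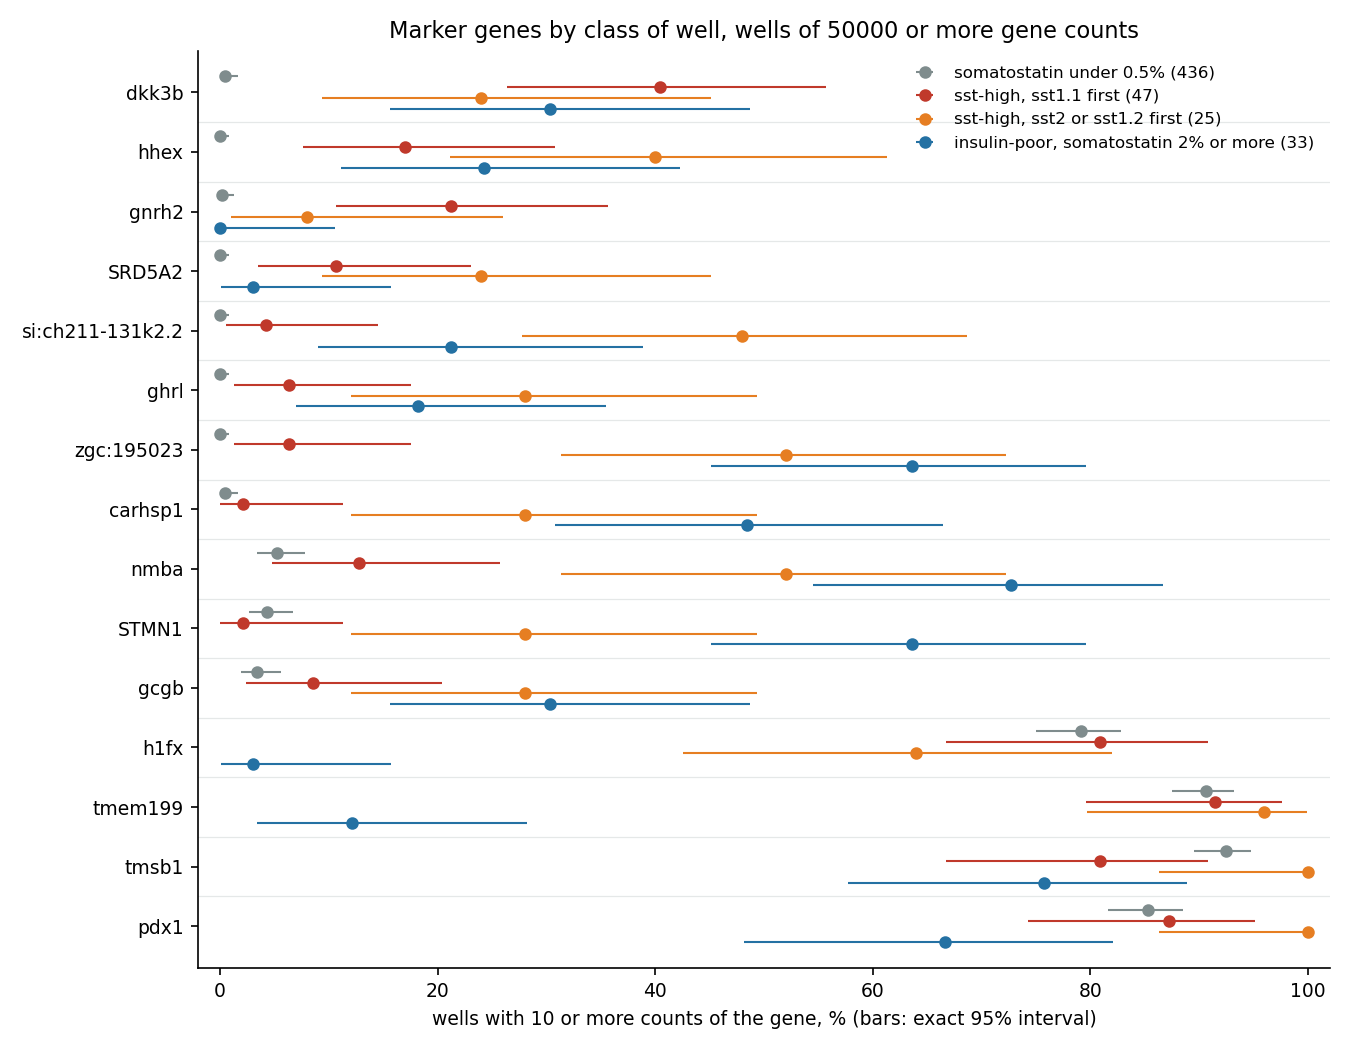
For 15 genes, the points give the percentage of wells with 10 or more counts and the bars the exact 95% interval, in sst-low wells (436, gray), sst-high wells led by *sst1.1* (47, red) or by *sst2* or *sst1.2* (25, orange) and insulin-poor somatostatin wells (33, blue), all of 50000 or more gene counts. *gnrh2* and *dkk3b* are at or near 0 in sst-low wells and highest in the wells led by *sst1.1*, *zgc:195023* and *carhsp1* run from near 0 through the red and orange points to the blue, and *h1fx* and *tmem199* are high in all insulin wells and low in the blue.

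Genes were also taken from the contrast of the insulin-poor somatostatin wells with the sst-low wells, to place each sst-high well between both. A gene had to differ at least 4-fold with all groups summed, at 100 CPM or more, and in the same direction in all 3 groups. It also needed 10 or more counts in at least 30% of the wells of the higher kind. Within a group the difference could be smaller, as for *nicol1* in control (255.5 against 126.5 CPM). By this rule 11 genes were higher in the insulin-poor somatostatin wells (*zgc:195023*, *kctd12.2*, *dkk3b*, *carhsp1*, *gcgb*, *map2k6*, *nmba*, *STMN1*, *nicol1*, *GLUL* and *rap1b*) and 9 in the sst-low wells (*pyya*, *h1fx*, *zgc:172302*, *coq5*, *tmem199*, *ndufa4l2a*, *ptmaa*, *tmsb1* and *pdx1*). The sst-high wells took no part in this choice, but the rule was tightened after values were seen, and the result is a description. Each well was placed on a scale where the sst-low sum of the group is 0 and the insulin-poor somatostatin sum is 100. There *ins* lay at a median of 57.9 in wells led by *sst1.1* and at 51.7 in wells led by *sst2* or *sst1.2*. Limits on *ins* chose all these kinds of well, so its place depends on the rule and is no evidence beside the other genes. The 9 genes of the sst-low side lay at 55.1 and 63.0. The 11 genes of the somatostatin side lay at 4.7 and 25.5, where the insulin-poor somatostatin wells themselves had a median of 88.3. Only 3 of these 33 insulin-poor wells were led by *sst1.1*, so the 11 genes are mainly those of wells led by *sst2* or *sst1.2*. The scale therefore cannot compare both kinds of sst-high well on equal terms. The range was wide, from -7.5 to 146.1 in wells led by *sst1.1* and from -7.2 to 255.6 in the others.

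Counted by wells, at least 3 of the 11 somatostatin-side genes reached 10 counts in 6 of 47 wells led by *sst1.1*, in 14 of 25 wells led by *sst2* or *sst1.2*, in 28 of 33 insulin-poor somatostatin wells and in 2 of 436 sst-low wells. The choice of these 11 genes from wells seldom led by *sst1.1* limits this count too. At least 5 of the 9 genes of the sst-low side reached 10 counts in 42 of 47, 23 of 25, 3 of 33 and 385 of 436. Both were met in 5 of 47 wells led by *sst1.1* and in 13 of 25 of the others, of which 11 belonged to the 48-h group, 2 to the 24-h group and 0 to control. *zgc:195023* stood at 0.6 CPM over the sst-low wells, 23.4 CPM over wells led by *sst1.1*, 1790 CPM over wells led by *sst2* or *sst1.2* and 3182 CPM over insulin-poor somatostatin wells. *nmba*, a neuromedin B precursor, ran through 194.8, 417, 1692 and 3187 CPM in the same order. *dkk3b* did not follow it, with 11.6, 1016, 328 and 780 CPM.

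A well that received a beta cell and a delta cell together would hold both hormones, and the depth and RNA content of the sst-high wells are given here as measured. Counts on genes were not higher in them. Their median was 457275 in 72 deep sst-high wells and 542403 in the sst-low wells, a ratio of 0.843, with ratios of 0.953 in control, 0.942 at 24 h, 0.785 in set 1 and 0.879 in set 2 of the 48-h group. Up to a fixed mass of cDNA entered each library and the libraries were pooled in equal amounts, so that this depth is no measure of the RNA in a well. More genes were detected at an equal depth. With each well thinned to 50000 counts, a median of 518 genes was seen in sst-high wells and 370 in sst-low wells (ratio 1.40), and the ratio was 1.42 in control, 1.36 at 24 h, 1.51 in set 1 and 1.34 in set 2. Without thinning the medians were 1273 and 1197.5 genes. The wells led by *sst1.1* had a median of 451 genes at that depth (1.22 times the sst-low wells) and the wells led by *sst2* or *sst1.2* had 691 (1.87 times), although single wells of all kinds overlapped. In control the order was the other way, with 616 genes (1.70 times) in wells led by *sst1.1* and 459 (1.27 times) in the others.

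Spike-in RNA was added in equal amount to each well, so that gene counts per spike-in count follow the RNA of the well. The median was 1149 in sst-high and 489 in sst-low wells. By group the values were 885 against 955 in control, 488 against 328 at 24 h, 2338 against 268 in set 1 and 1337 against 500 in set 2. The ratio is coarse, because 36.1% of the deep sst-high and 34.2% of the deep sst-low wells had fewer than 100 spike-in counts, and single wells ran from 94.9 to 97661 among sst-high and from 35.2 to 274976 among sst-low wells. The mitochondrial share was 11.6% in both kinds. How many of the 72 wells held more than 1 cell was not tested, and no doublet caller was run.

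**Figure D5:**
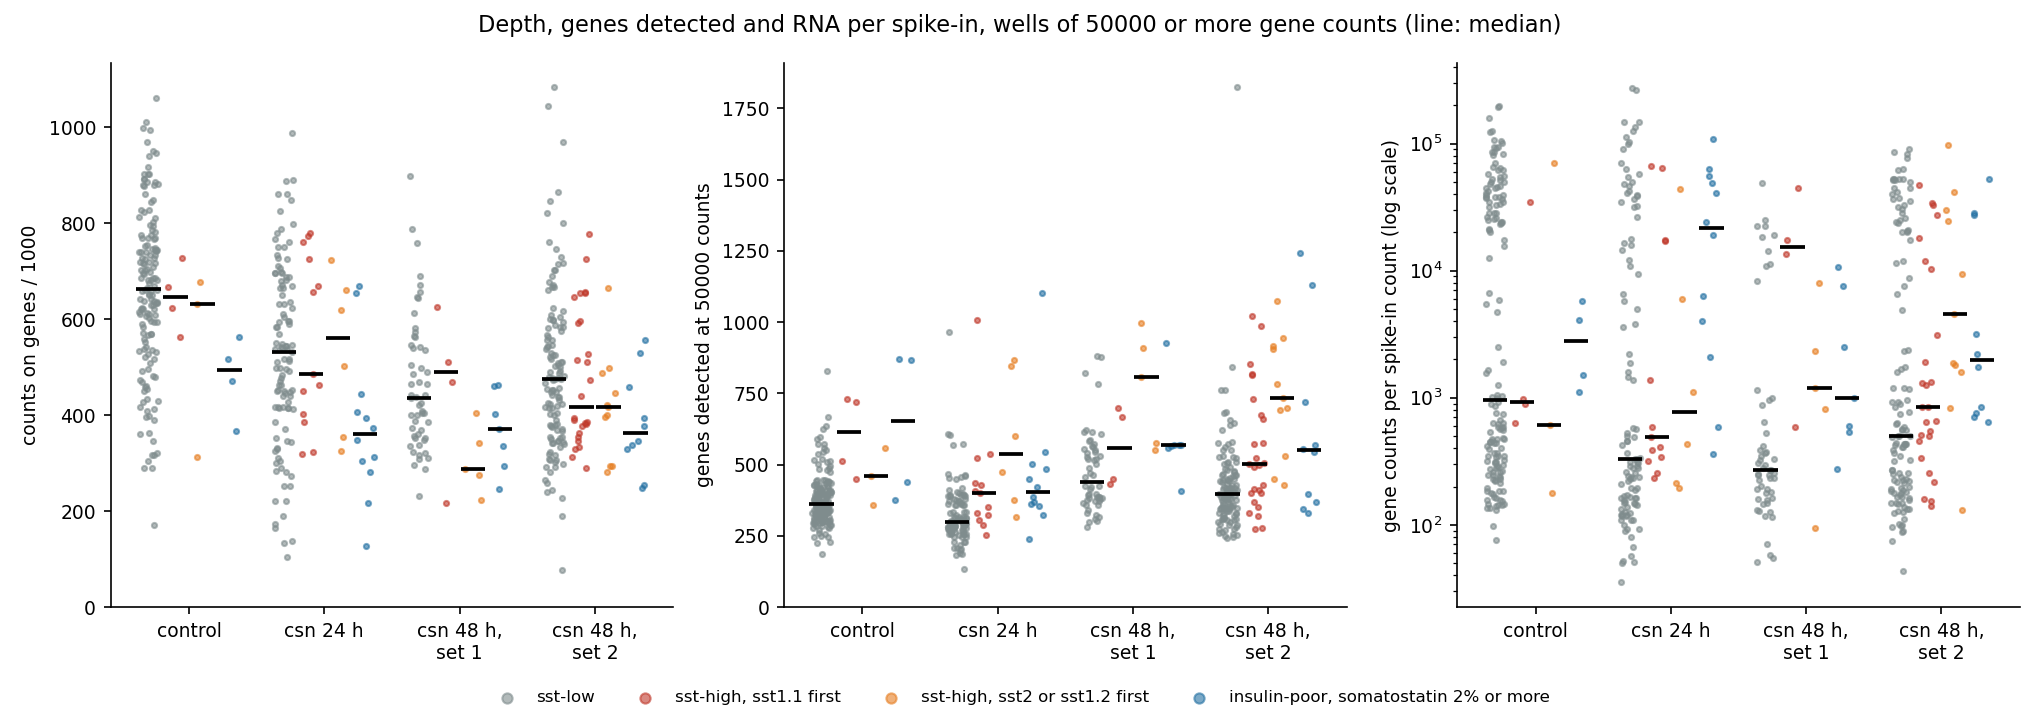
For deep wells of each group and set, the panels show gene counts (divided by 1000), genes detected after thinning to 50000 counts, and gene counts per spike-in count (log scale), with a point for each well and a black line at the median. The sst-high wells (red and orange) overlap the sst-low wells (gray) in gene counts and have higher medians of genes detected in every group and set (518 against 370 genes over all groups); insulin-poor somatostatin wells are blue.

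Other hormones were found with somatostatin in some wells. Glucagon RNA (*gcga* and *gcgb* together) took 1% or more of the counts in 7 of 72 deep sst-high wells (9.72%, 4.00 to 19%), 1 at 24 h and 6 at 48 h, against 11 of 436 sst-low wells (2.52%, 1.27 to 4.47%) and 8 of 33 insulin-poor somatostatin wells. Of the 7 wells, 6 were led by *sst2* or *sst1.2* (6 of 25, against 1 of 47 led by *sst1.1*). *pyya*, a peptide YY gene, took 1% or more in 3 of 72 sst-high and in 32 of 436 sst-low wells. In the sums *pyya* was not called over the 3 groups (log2 fold change -1.21), but was called lower once control was left out (-2.10). In the sums, *gcga* stood at 16.8, 4200 and 8135 CPM in sst-high wells of control, 24 h and 48 h against 744, 1506 and 4086 CPM, in opposite directions between control and both treated groups, and neither *gcga* nor *gcgb* was called by edgeR over the 3 groups, while both were called higher once control was left out. No sst-high well reached 1% for *ghrl* or for the gene annotated *CALCB*. The summed level of 9 acinar cell genes had a median of 0 CPM in both kinds of well. Over all counts of the class it was 463 CPM in the 72 sst-high wells, with a highest well of 15204 CPM, and 155.6 CPM in the sst-low wells, with a highest of 56150 CPM. Most of it was *prss59.2*, a trypsin gene, at 398 and 87.7 CPM. No acinar cell gene was called, and the part of this RNA in the other differences was not tested. All but 1 of the 5 macrophage genes measured were at 0 in the 72 wells, as were 3 of 6 for fibroblasts and 1 of 3 for erythrocytes.

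More general genes also reached 10 counts in more of the sst-high wells. Of 13613 genes, 86 did so in a share of sst-high wells at least 20 points above that of sst-low wells (0.632%), and 1 in a share at least 20 points below (0.00735%). Among the 10 with the largest difference were *dkk3b*, *ATP5MG*, *eef2b*, *COX7A2*, *rpl23*, *sec61g*, *rpl38*, *rpl10a* and *psmd10*. *eef2b*, a translation elongation factor, reached 10 counts in 62.5% of sst-high and 27.8% of sst-low wells, *rpl23*, a ribosomal protein, in 86.1 and 53.4%, and *ATP5MG*, a subunit of the ATP synthase, in 63.9 and 28.2%. They did so in insulin-poor somatostatin wells in 45.5, 75.8 and 45.5%. The part of the number of genes detected per well in these shares was not tested. The gene furthest the other way was *zmp:0000001228*, at 40.3% of sst-high, 64.4% of sst-low and 3.0% of insulin-poor somatostatin wells. The gene annotated *CXCR4* (ENSDARG00000041959), a chemokine receptor, reached 10 counts in 35 of 436 sst-low wells and in 0 of 72 sst-high wells, where a count of 0 allows up to 4.17%.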

How the data were processed

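The authors sorted cells into 384-well plates, amplified them with Smart-seq2, trimmed the reads and, per the labels and their methods, used gsnap (2019-06-10) with the GRCz11 genome and featureCounts (2.0.1) with Ensembl release 95. The deposited values are these raw counts on 32520 genes and 92 spike-in RNAs, without normalization or UMIs. Names were found for 29210 genes, and coordinates are those of the deposited table. Gene counts per well ran from 1486 to 1353715, and 697 wells were read, of which 4 have no condition by their labels (1 NC, 3 RNA) and entered no comparison. Wells with 50000 gene counts or more are called deep.

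Shares carry exact Clopper-Pearson 95% intervals, the limit beside a count of 0 is 3 of the total, and both cover counting error only. Wells are not replicates and were not tested. The only test was edgeR 4.0.16 (R 4.3.3; glmQLFit and glmQLFTest, TMM, filterByExpr, Benjamini-Hochberg at 5%) on counts summed per group and class (6 sums), with the group as a block, a pairing of both sums of the same pool and plate. It left 2 residual degrees of freedom, and the spread was shared over genes. On simulated sums with a dispersion of 0.1, 84% of genes changed 4-fold and 98 to 100% of those changed 16-fold or more were recovered.

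Genes named in the text are those of the rule, those called, members of the fixed lists (223 of 294 list entries matched), the 10 with the largest difference in the share of wells at 10 counts in either direction, and the genes that place the wells between both profiles. The wells and lists were chosen with earlier results of these data known. Genes said to have been picked after their values were seen lie outside the rule. Alternatives covered the limits on hormones, mitochondrial share and depth, thinning, normalization (DESeq2 1.42.0 too), filters, blocks and leaving out each group or 48-h set. Fits with edgeR's newer dispersion method and without shallow wells were added after seeing the data. Sequences were not used here.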

Additional observations from a re-analysis of the deposited data

Results flagged for a closer look

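Among the 7 sst-high wells of control, 1 held *ins* at 27.4% of gene counts, far from the next at 8.56% and the lowest at 1.84%. Its somatostatin was nearly all *sst1.1* (11.9 of 12.3%), and it held 741 counts of *hhex* and 3848 of *gnrh2*. Another of the 7 wells had 313575 gene counts, against 563148 in the next and 727235 in the highest. Control was the only group with few enough wells to be looked at in this way, 5 quantities were looked at and 2 had such a well. The *ins* share was also used to choose these wells, so the numbers are not set against a rate for chance.

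The well labelled NC on plate 1 has no condition and was in no comparison. It held 4320 spike-in counts and 3617 gene counts on 981 genes, with *ins* at 8.681% and somatostatin at 4.617%. A count of 0 at that depth allows 0.0829%. Its somatostatin reads divided into 27.5% *sst1.1*, 22.8% *sst1.2* and 49.7% *sst2*. By these shares and its depth it would lie among the shallow sst-high wells, all 14 of which were on plate 3. The 3 wells labelled RNA held *ins* at 0.325 to 0.532% and somatostatin at 0.147 to 0.262%.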

How the results depend on the processing

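The share of sst-high wells kept its order (control, 24 h, 48 h with both sets pooled) under every limit tried, but in deep wells set 1 (14.1%) was below the 24-h group (14.5%). Over all groups 15.4% became 12.2% with a somatostatin limit of 5%, 8.94% with 10%, and 9.85% with an insulin limit of 5%. At 24 h it became 7.52% (somatostatin 10%) and 6.19% (insulin 5%), and at 48 h 17.1, 13.7 and 16.6%. The ratio of median gene counts over all 86 wells was 0.742, 0.843 in deep wells and 0.629 without hormone counts, and that of genes detected was 1.06, or 1.04 (somatostatin 5%), 1.13 (insulin 5%) and 1.40 (thinned). The cause of these moves was not tested.

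Genes called numbered 4 higher and 3 lower, and 9 and 0 with DESeq2 size factors, 8 and 4 with edgeR's newer dispersion method, 230 and 540 with DESeq2, 2 and 8 with no filter, 4 and 0 without the replicate block, 2 and 3 with both 48-h sets as blocks of their own, 1 and 0 without set 2, 3 and 10 with thinned wells, 4 and 5 without the deepest sst-high well, and 0 and 0 with an insulin limit of 5% (1315 at an unadjusted p under 0.05 there). DESeq2 tested 6582 genes, against 9035 in the main fit. Leaving out a group gave 2 (without 24 h) to 13 (without control) higher and 0 (without 48 h) to 6 (without control) lower. Signs turned under DESeq2 and its size factors for *CR383676.1* (0.79), *ppdpfb* (0.42) and *pdx1* (0.44), and for *MT-CO2* with no filter (-0.25) and thinned wells (-0.15). Among the values for single genes, 35 fell short of the threshold, 3 newly passed it and 8 turned sign. Genes seen in few wells limit the fit, and a gene under 10 counts in a well may still be expressed there.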

Other observations

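On the plates, 48 of the 72 deep sst-high wells touched another sst-high well (66.7%), and 49.3% of the deep sst-low wells touched one. By group the shares were 28.6 and 26.3% in control, 73.7 and 55.0% at 24 h, 44.4 and 37% in set 1, and 75.7 and 74.4% in set 2 of the 48-h group.

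The 58 other insulin-poor wells, with neither hormone in quantity, had a median depth of 402044 gene counts, median *ins* of 0.0735% and median somatostatin of 0.0179%. At 10 or more counts, *dkk3b* was found in 1 of them and *hhex* and *gnrh2* in 0.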
